A study of Homo sapiens with 6 samples.

Results

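ATP-binding cassette (ABC) genes were taken as every gene on the array whose symbol is ABCA, ABCB, ABCC, ABCD, ABCE, ABCF or ABCG followed by a number. Among the 18239 genes measured, 44 met this rule, with 127 probe sets between them. They comprise 13 ABCA, 7 ABCB, 12 ABCC, 3 ABCD, 1 ABCE, 3 ABCF and 5 ABCG genes. RefSeq lists 3 of them, ABCA11P, ABCC6P1 and ABCC13, as transcribed pseudogenes. A gene's value is the mean of its probe sets, and 8 of the 44 genes have a single probe set. A further 3 probe sets are listed with an ABC symbol and another gene and were left out.

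The cells were LNCaP, a human prostate cancer line that responds to androgen, kept in F12 medium to which 7% fetal bovine serum had been added. The 3 urolithin A arrays come from cells kept for 24 h with 40 µM urolithin A, a product that gut bacteria make from ellagitannins of the diet, and the 3 control arrays from cells called untreated in the titles and given saline in the treatment protocol. The labels name no solvent for urolithin A. Nor do they tie each array to a culture of its own, so a p-value here covers array-to-array spread that could be purely technical, and the small number of arrays limits the precision.

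Each value is on a log2 scale, with the median control array of that probe set at 0. Differences between arrays can therefore be read, whereas abundance and closeness to background cannot, and levels of different genes cannot be compared. For the same reason the cell type could not be checked from the levels of its markers. Of 4 luminal prostate markers measured, FOLH1 rose (log2 change 0.31), KLK3 fell (log2 change -0.98), and 2 did not pass. None of the 2 basal, 4 fibroblast, 4 immune or 2 endothelial markers passed in limma (0 at an unadjusted p under 0.05). The array mean of the 4 immune markers ranged from 0.05 to 0.89 in urolithin A arrays and from -0.06 to 0.37 in control arrays, mostly through HLA-DRA, which stood at -0.02, 1.17 and 3.09 in urolithin A replicates 1, 2 and 3 and at 1.01, 0.03 and -0.02 in control replicates 1, 2 and 3.

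ABC proteins bind and hydrolyse ATP, and most of them use it to move lipids, sterols, bile salts, drugs, conjugates, peptides or metabolites across a membrane. The ABCE and ABCF proteins have no membrane domain and act on ribosomes. In tumour cells the family is best known for drug efflux by the products of ABCB1, ABCC1 and ABCG2, and in lipid metabolism for cholesterol export by those of ABCA1 and ABCG1.

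After urolithin A, 5 of the 44 ABC genes changed and 39 did not pass. ABCC4, the multidrug resistance protein MRP4, fell 2.42-fold, and ABCG1, a cholesterol exporter, rose 2.05-fold. Smaller changes were called for ABCC1 (MRP1), which fell 1.27-fold, for the ribosome recycling factor ABCE1, which fell 1.18-fold, and for ABCC10 (MRP7), which rose 1.33-fold. Each gene was fitted with limma over all 18239 genes, and a gene was called at a Benjamini-Hochberg adjusted p under 0.05.

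The 5 called members make up 11.4% of the family, where 10.2% of all genes were called, so the share called in the family was near that of all genes. By direction, 2 of 44 members were higher, against 4.85% of all genes, and 3 of 44 were lower, against 5.31% of all genes. The urolithin A arrays lay wholly above the controls in 10 members and wholly below them in 4. These 14 are 31.8% of the members, against 29.3% of all genes. The log2 change was above 0 in 28 of 44 members (63.6%), compared with 53.1% of all genes, and its median was 0.06 in the family and 0.01 over all genes. In size, the median log2 change was 0.08 for the members and 0.10 over all genes. The size exceeded 0.5 in 2 members, ABCC4 and ABCG1 (4.55%, against 3.81% of all genes).

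**Figure D1:**
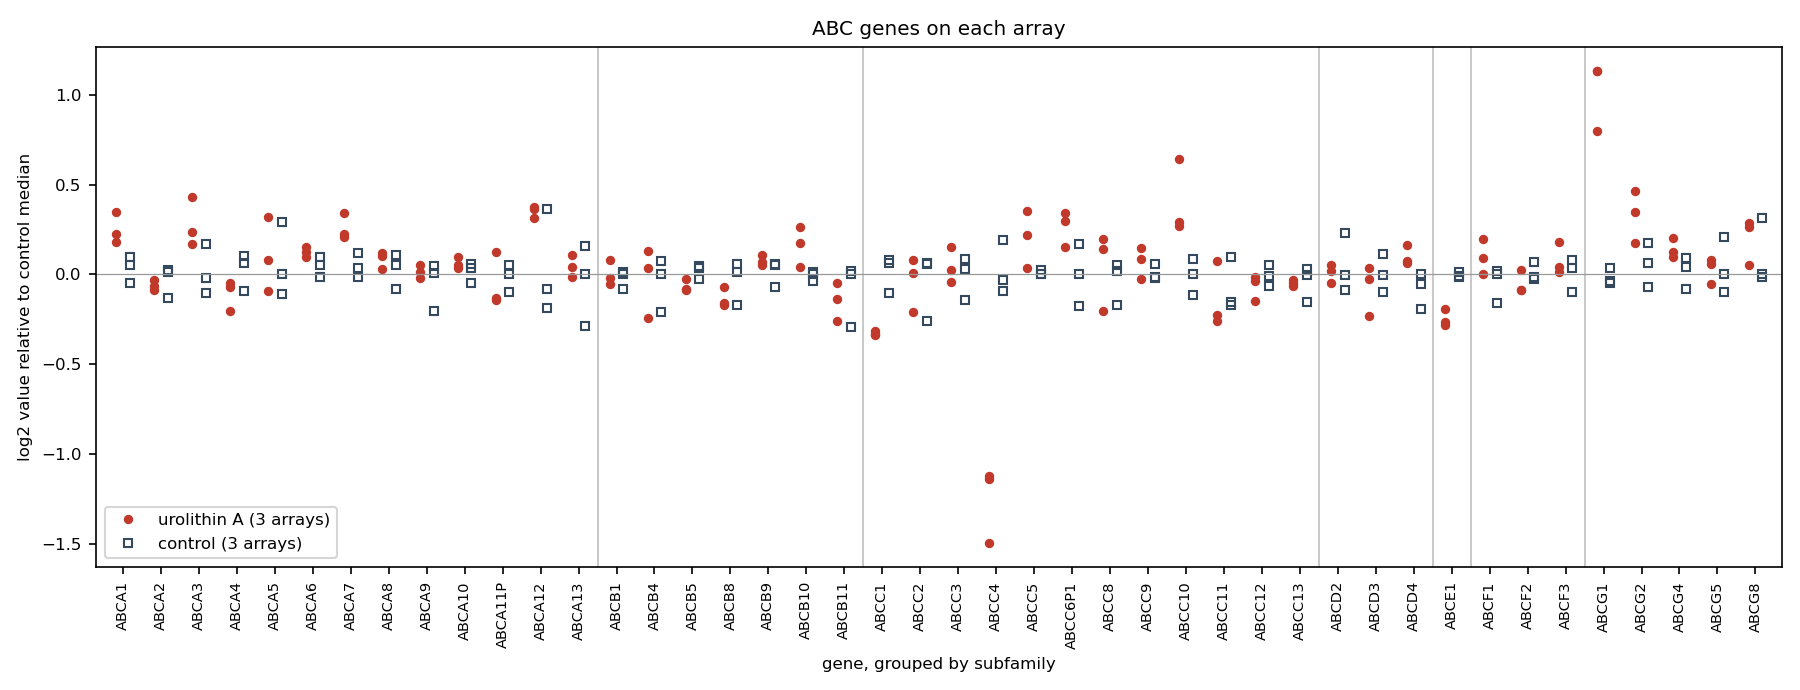
Log2 value of each of the 44 ABC genes relative to the control median (y axis), by gene and subfamily (x axis, lines between subfamilies), with filled circles for the 3 urolithin A arrays and open squares for the 3 control arrays. ABCC4 lies between -1.49 and -1.12 and ABCG1 between 0.80 and 1.13 on urolithin A arrays, while most other genes have groups that overlap.

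Promoter entries were available for 3 called members, shown here: ABCC4 and ABCE1, which fell, and ABCC10, which rose. For the other called members, ABCC1 and ABCG1, the RefSeq set used here held no promoter. Each sequence is the 250 bases before the outermost listed transcription start, on the gene's strand in GRCh38.p14. ABCC4 is at chr13:95301452-95301701 (minus strand), ABCE1 at chr4:145098061-145098310 (plus strand) and ABCC10 at chr6:43427291-43427540 (plus strand). Capitals mark matches on either strand to one of 7 motifs: the GC box GGGCGG, the xenobiotic response core GCGTG, the antioxidant response core TGACNNNGC, the androgen receptor half-site AGAACA, the nuclear receptor half-site AGGTCA, the direct repeat of that half-site with a spacer of 4 bases, and the E-box CACGTG.
ABCC4: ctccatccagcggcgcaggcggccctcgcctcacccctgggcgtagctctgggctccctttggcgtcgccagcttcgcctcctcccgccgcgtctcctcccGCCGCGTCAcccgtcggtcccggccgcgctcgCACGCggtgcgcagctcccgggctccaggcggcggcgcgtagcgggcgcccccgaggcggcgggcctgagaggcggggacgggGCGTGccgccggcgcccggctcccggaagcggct
ABCE1: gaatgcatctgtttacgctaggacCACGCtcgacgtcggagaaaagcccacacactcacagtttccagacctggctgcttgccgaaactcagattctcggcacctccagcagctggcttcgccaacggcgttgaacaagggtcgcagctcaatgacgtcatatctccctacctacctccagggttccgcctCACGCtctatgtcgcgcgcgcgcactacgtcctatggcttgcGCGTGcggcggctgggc
ABCC10: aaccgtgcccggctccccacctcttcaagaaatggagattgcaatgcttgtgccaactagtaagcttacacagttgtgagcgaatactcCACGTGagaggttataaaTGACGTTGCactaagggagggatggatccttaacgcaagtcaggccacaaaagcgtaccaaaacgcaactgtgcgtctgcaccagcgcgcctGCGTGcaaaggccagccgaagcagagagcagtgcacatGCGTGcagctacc

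The ABCC4 promoter held 2 xenobiotic response cores and 1 antioxidant response core, and 80.4% of its bases were G or C. The ABCE1 promoter held 3 xenobiotic response cores, with a G and C share of 60%. The ABCC10 promoter held 2 xenobiotic response cores, 1 antioxidant response core and 1 E-box. None of the 3 held a GC box, either half-site or the direct repeat in this window. The xenobiotic response core was in 32.2% of the 35116 promoters of the table and in 42% of the 50 promoters listed for 33 members. For the antioxidant response core these shares were 10.9% and 16%, for the GC box 42.6% and 48%, for the E-box 6.34% and 16%, for the androgen receptor half-site 12.4% and 12%, and for the nuclear receptor half-site 12.1% and 4%. The direct repeat was in 0.0142% of all promoters and in 0 of the 50 of the family. These matches describe the letters of the window only.

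Among the ABCC genes, which code mostly for exporters of conjugates and organic anions, 2 of 12 fell, 1 rose and 9 did not pass. That is 25% called, against 10.2% of all genes, and of these calls only that of ABCC4 held without each single array. ABCC4 exports cyclic nucleotides, prostaglandins and conjugated steroids and is known as an androgen-induced gene of prostate cells. It stood at -1.49, -1.14 and -1.12 in urolithin A replicates 1, 2 and 3, against -0.09, -0.03 and 0.19 in control replicates 1, 2 and 3. All 3 urolithin A arrays lay more than 1 log2 unit below every control array. The log2 change was -1.27 (SE 0.12, 95% interval -1.54 to -1.01, adjusted p = 0.000709). It kept its call without each single array, at a log2 change between -1.34 and -1.15.

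ABCC1 exports glutathione conjugates and many anticancer drugs. It stood at -0.34, -0.33 and -0.32 in urolithin A arrays, against 0.07, -0.11 and 0.08 in control arrays, with no overlap. In this mean over probe sets the SD was 0.01 in urolithin A arrays and 0.10 in control arrays (n = 3 each). Single probe sets did not show such a gap, with SDs of 0.19, 0.12 and 0.12 in urolithin A arrays. The same probe sets had SDs of 0.22, 0.09 and 0.11 in control arrays. The log2 change of the mean was -0.34 (SE 0.07, adjusted p = 0.0202). When single arrays were left out, the call held only without control replicate 2 and ended in the other 5 fits, with adjusted p up to 0.0732, while the log2 change stayed between -0.40 and -0.31. Leaving out the probe set marked as open to cross-hybridisation also ended it, at a log2 change of -0.27 (adjusted p = 0.0759).

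ABCC10, which exports lipophilic drugs and an estrogen glucuronide, was measured by 1 probe set. It stood at 0.64, 0.27 and 0.29 in urolithin A arrays and at 0.00, -0.11 and 0.08 in control arrays. The groups did not overlap, and replicate 1 was the highest of the urolithin A arrays. At a log2 change of 0.41 (SE 0.11), ABCC10 passed (adjusted p = 0.0485), but the call ended whichever single array was left out (adjusted p from 0.0589 to 0.149) and with each array centred on its median (adjusted p = 0.0549).

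The hepatic exporters ABCC2 (MRP2) and ABCC3 (MRP3) had groups that overlapped. ABCC2 stood at -0.21, 0.01 and 0.08 in urolithin A arrays and at 0.06, 0.06 and -0.26 in control arrays, with a log2 change of 0.00 (95% interval -0.25 to 0.26). ABCC3 stood at -0.04, 0.03 and 0.15 in urolithin A arrays and at 0.03, 0.09 and -0.14 in control arrays, with a log2 change of 0.05 (95% interval -0.14 to 0.25). ABCC5 (MRP5), another exporter of cyclic nucleotides, had groups that lay just apart in the mean over its probe sets. It stood at 0.221, 0.034 and 0.354 in urolithin A arrays and at 0.0024, 0.027 and 0.0048 in control arrays. The log2 change was 0.19, short of the threshold (adjusted p = 0.224). Its groups overlapped in the probe sets with changes of 0.08, 0.14 and 0.15 and lay apart in that at 0.39. The sulfonylurea receptors ABCC8 and ABCC9, which regulate potassium channels, had log2 changes of 0.08 and 0.06, the apocrine exporter ABCC11 one of -0.06 and its neighbour on chromosome 16, ABCC12, one of -0.06. The pseudogenes ABCC13 and ABCC6P1 had log2 changes of -0.01 and 0.27, neither of which passed. ABCC6P1 is a close copy of part of ABCC6, so which transcript its probe set detects is uncertain.

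Among the 5 ABCG genes, 1 rose and 4 did not pass (20% called, against 10.2% of all genes). ABCG1 exports cholesterol and oxysterols to lipoproteins and is a known target of the liver X receptors (LXR). It stood at 0.80, 1.13 and 1.13 in urolithin A arrays, against -0.05, 0.04 and -0.03 in control arrays. Each urolithin A array lay far above the highest control. The log2 change was 1.04 (SE 0.10, 95% interval 0.81 to 1.26, adjusted p = 0.000772), and it lay between 0.98 and 1.15 and was called without each single array. Urolithin A replicate 1, with HLA-DRA at -0.02, was the lowest of its group for ABCG1, at 0.80, and control replicate 1, with HLA-DRA at 1.01, had ABCG1 at -0.05. In urolithin A replicate 1 against control replicates 2 and 3, the arrays without raised HLA-DRA, the log2 change of ABCG1 was 0.80 and missed the threshold (adjusted p = 0.0654). In that fit, where the lone array is assumed to vary like the controls, 48 genes in all were called, and of the members only ABCC4, at -1.57 (adjusted p = 0.0367).

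ABCG2, the breast cancer resistance protein, is known to carry urolithin A and its sulfate. It stood at 0.35, 0.47 and 0.17 in urolithin A arrays, against -0.07, 0.18 and 0.06 in control arrays, so that urolithin A replicate 3 lay just under control replicate 2. Its log2 change of 0.27 (95% interval 0.05 to 0.49) did not pass (adjusted p = 0.122). ABCG4, a sterol exporter of the brain, had a log2 change of 0.12 with groups that did not overlap (adjusted p = 0.361). ABCG5 and ABCG8, whose products pair to export plant sterols and whose genes are neighbours on chromosome 2, had log2 changes of -0.01 and 0.10.

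ABCE1 splits ribosomes after termination and was the only ABCE gene. It stood at -0.19, -0.28 and -0.27 in urolithin A arrays, against 0.01, -0.02 and -0.01 in control arrays. In the controls ABCE1 had an SD of 0.01 (n = 3) as a mean of probe sets, and SDs from 0.02 to 0.13 in single probe sets. No array of the groups overlapped. Its log2 change was -0.24 (SE 0.06, adjusted p = 0.0427), and the call ended whichever single array was left out (adjusted p from 0.0664 to 0.124) and, at an adjusted p of 0.0665, with the replicate number as a block. The ABCF genes act in translation, ABCF1 in initiation. None of the 3 passed in limma (0 at an unadjusted p under 0.05), with log2 changes of 0.14 for ABCF1, -0.06 for ABCF2 and 0.07 for ABCF3.

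**Figure D2:**
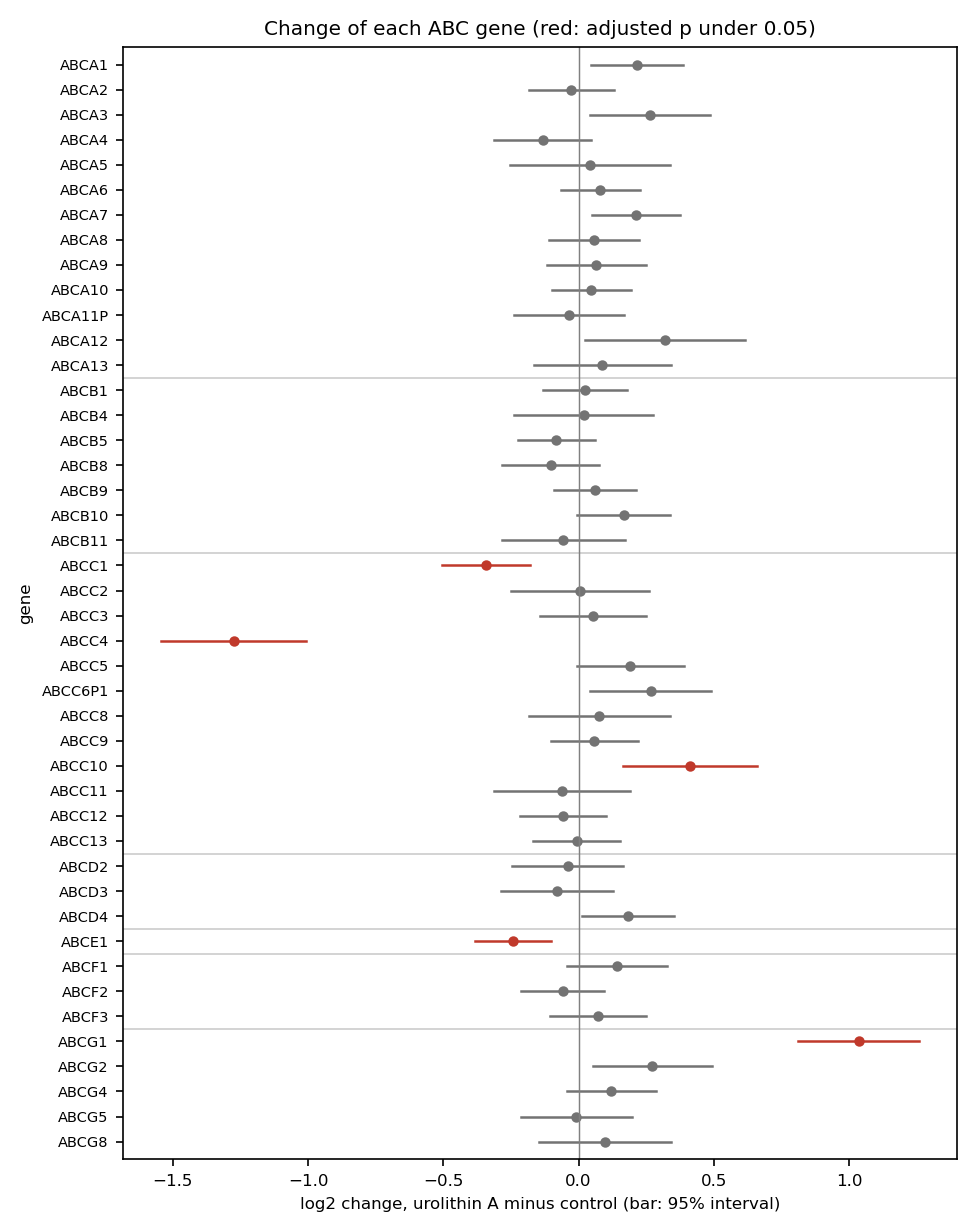
Log2 change of each of the 44 ABC genes, urolithin A minus control (x axis), with its 95% interval as a bar, by gene and subfamily (y axis, top to bottom from ABCA to ABCG). The 5 called genes are red. ABCC4 at -1.27 and ABCG1 at 1.04 lie far from the other 42, which range from -0.34 to 0.41.

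Of the 13 ABCA genes, which code for large lipid transporters, none passed in limma (4 at an unadjusted p under 0.05). Over all genes, 4393 of 18239 had an unadjusted p under 0.05 in limma, and 12 of the 44 members did. In all 4 of the ABCA genes at that level, ABCA1, ABCA3, ABCA7 and ABCA12, the log2 change was above 0. ABCA1, which loads cholesterol onto apolipoprotein A-I and is, like ABCG1, a known LXR target, stood at 0.18, 0.22 and 0.35 in urolithin A arrays, against -0.05, 0.10 and 0.05 in control arrays. The groups did not overlap, and its log2 change of 0.22 (95% interval 0.05 to 0.38) did not pass (adjusted p = 0.114). With the median of its 3 probe sets in place of the mean, the log2 change was 0.13.

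ABCA7, a phospholipid transporter, had a log2 change of 0.21 (adjusted p = 0.105) and the lung surfactant lipid transporter ABCA3 one of 0.26 (adjusted p = 0.134), both with groups that did not overlap. ABCA12, a skin lipid transporter, had the highest change of the subfamily at 0.32 (adjusted p = 0.175). Its urolithin A arrays stood at 0.36, 0.38 and 0.31, against 0.36, -0.08 and -0.19 in control arrays, so control replicate 1 lay within the urolithin A range. Without that control array ABCA12 was called, and it was called under no other alternative. ABCA4, the retinoid transporter of photoreceptors, had the lowest change of the subfamily at -0.13. ABCA2 and ABCA13 had log2 changes of -0.03 and 0.09 and the pseudogene ABCA11P one of -0.04.

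The genes ABCA8, ABCA9, ABCA6, ABCA10 and ABCA5 lie next to each other on chromosome 17 and are close in sequence. All 5 had log2 changes between 0.04 and 0.08, none of which passed in limma (0 at an unadjusted p under 0.05). For ABCA6, the urolithin A arrays at 0.13, 0.10 and 0.15 lay just above the controls at -0.01, 0.09 and 0.05.

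None of the 7 ABCB genes passed in limma (0 at an unadjusted p under 0.05). ABCB1, the drug efflux pump P-glycoprotein, stood at -0.02, 0.08 and -0.05 in urolithin A arrays and at -0.08, 0.00 and 0.01 in control arrays. The groups overlapped, with a log2 change of 0.02 and a 95% interval from -0.13 to 0.18. Its neighbour on chromosome 7, ABCB4, which moves phosphatidylcholine into bile, had a log2 change of 0.02, and the bile salt pump ABCB11 one of -0.06. The mitochondrial members ABCB10 and ABCB8 had the highest and the lowest change of the subfamily, at 0.17 and -0.10. ABCB10 stood at 0.27, 0.04 and 0.17 in urolithin A arrays, above the controls at 0.00, -0.04 and 0.01 (adjusted p = 0.219). The lysosomal peptide transporter ABCB9 had a log2 change of 0.06 over its 8 probe sets, and ABCB5 one of -0.08, with groups that lay just apart.

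The ABCD genes code for transporters of peroxisomes and lysosomes, and none of the 3 measured passed in limma (1 at an unadjusted p under 0.05). That gene was ABCD4, which takes part in the release of cobalamin from lysosomes. It stood at 0.07, 0.06 and 0.16 in urolithin A arrays, against 0.00, -0.19 and -0.06 in control arrays, with a log2 change of 0.18 (adjusted p = 0.17). The peroxisomal fatty acid transporters ABCD2 and ABCD3 had log2 changes of -0.04 and -0.08.

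Of the 39 members that did not pass, 38 had a 95% interval within 0.5 log2 units of 0 on both sides, and the remaining interval, of ABCA12, reached 0.62. In 7 of the 39 the interval did not include 0. These intervals are not adjusted for the number of genes tested. Their median half-width was 0.18 over the 44 members, so changes smaller than this could mostly not be told from 0 with 3 arrays a group. A call at the adjusted threshold asks for more, and some larger changes, such as 0.32 for ABCA12, were not called.

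The probe sets of a gene were then compared with each other, since a mean over probe sets is hard to read where they move unequally. Limma's F-test on probe sets called 3 of the 36 members with several probe sets, ABCC4, ABCG1 and ABCG2 (8.33%, against 9.59% of 11822 genes). Tested alone, 10 of 127 probe sets passed (7.87%, against 8.51% of all probe sets with 1 symbol), 5 higher and 5 lower. They belong to ABCC4 (4 probe sets), ABCG1 (4), ABCC1 (1) and ABCA3 (1).

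All 4 ABCC4 probe sets fell, with log2 changes of -1.89, -1.45, -0.995 and -0.76 (F-test adjusted p = 0.00567). This F-test call held without each single array. It ended when probe sets open to cross-hybridisation, here that at -0.76, were left out. The one that fell most stood at -2.14, -1.72 and -1.91 in urolithin A arrays, against -0.11, 0.00 and 0.00 in control arrays, a 3.70-fold fall. The one that fell least stood at -0.94, -0.59 and -0.68 in urolithin A arrays, against -0.08, 0.00 and 0.15 in control arrays. Even for this probe set the groups lay apart.

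Of the 5 ABCG1 probe sets, 4 rose, with log2 changes from 0.82 to 1.45, and the fifth, at 0.40, missed the threshold (adjusted p = 0.111). Its urolithin A arrays stood at 0.12, 0.65 and 0.44, against 0.10, 0.00 and -0.09 in control arrays. The F-test gave an adjusted p of 0.00903, a call that ended when urolithin A replicate 3 or either of control replicates 2 and 3 was left out. The strongest probe set stood at 1.26, 1.54 and 1.57 in urolithin A arrays, against 0.13, -0.11 and 0.00 in control arrays, a 2.73-fold rise.

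The 2 ABCG2 probe sets went apart. One stood at 0.75, 1.01 and 0.41 in urolithin A arrays, against 0.00, 0.35 and -0.02 in control arrays, with a log2 change of 0.61 that missed the threshold (adjusted p = 0.0538). The other stood at -0.05, -0.08 and -0.06 in urolithin A arrays, against -0.14, 0.00 and 0.15 in control arrays, with a log2 change of -0.07. The F-test gave an adjusted p of 0.0476, a call that ended when any 1 array other than urolithin A replicate 3 was left out. Which transcripts each probe set detects was not examined.

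ABCC1 had log2 changes of -0.49, -0.39 and -0.15 in its 3 probe sets, of which that at -0.39 passed alone (adjusted p = 0.0403). The 5 probe sets of ABCE1 ranged from -0.44 to -0.07, all with urolithin A arrays below the controls, and none passed alone. ABCA3 had 1 called probe set, at 0.52 (adjusted p = 0.0219), and others at 0.27 and 0.01. ABCA7 had probe sets at -0.08 and 0.51, and ABCD3 spread from -0.33 to 0.25 over 5 probe sets (F-test adjusted p = 0.152).

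**Figure D3:**
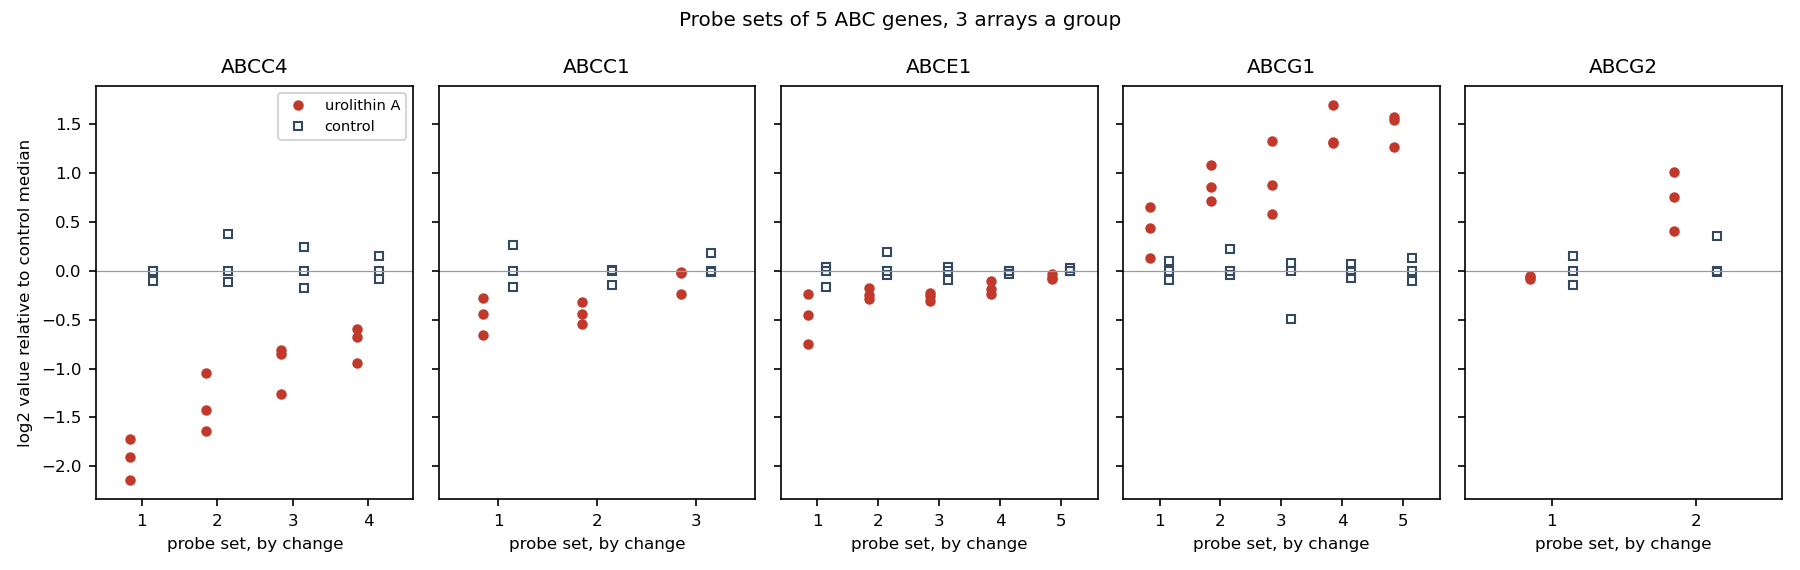
Log2 value relative to the control median (y axis) of each probe set of ABCC4, ABCC1, ABCE1, ABCG1 and ABCG2 (x axis, ordered by log2 change within a gene), with filled circles for the 3 urolithin A arrays and open squares for the 3 control arrays. All ABCC4 probe sets lie below the controls and all ABCG1 probe sets above them, while the 2 ABCG2 probe sets differ.

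Genes that work with ABC proteins were read from 8 lists. Among 3 family members with other symbols, the peptide transporter gene TAP1, which feeds antigen presentation, rose 1.55-fold and 2 did not pass. TAP1 stood at 0.58, 0.62 and 0.66 in urolithin A arrays, against -0.04, 0.06 and -0.08 in control arrays (log2 change 0.64, adjusted p = 0.0011). Its partner TAP2 had a log2 change of -0.27 (adjusted p = 0.0608), and the chloride channel gene CFTR one of 0.01.

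Of 15 receptors and factors known to control ABC genes, 0 passed in limma (2 at an unadjusted p under 0.05). These 2 were NR1H3, which codes for LXR alpha, at a log2 change of 0.45 (adjusted p = 0.0998), and SREBF1, a regulator of lipid synthesis, at 0.37 (adjusted p = 0.0606). NR1H3 stood at 0.40, 0.68 and 0.06 in urolithin A arrays, against 0.03, -0.23 and 0.00 in control arrays. Among 10 LXR targets outside the family, SMPDL3A, a nucleotide phosphodiesterase gene, fell 1.34-fold (adjusted p = 0.0319) and 9 did not pass. MYLIP, whose product degrades the LDL receptor, had a log2 change of 0.25 (adjusted p = 0.0617). LPCAT3 had one of 0.16 (adjusted p = 0.185) and the lipoprotein lipase gene LPL one of -0.39 (adjusted p = 0.213). In limma, 4 of the 10 had an unadjusted p under 0.05. These were SMPDL3A, which fell, and SREBF1, MYLIP and LPCAT3, with changes above 0. SREBF1 is on both lists. Of the 10 LXR targets, 4 had a log2 change above 0, and those that did not pass ranged from -0.39 for LPL to 0.37 for SREBF1. With single arrays left out, SMPDL3A kept its call once, when urolithin A replicate 1 was dropped, and otherwise had adjusted p up to 0.107.

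Of 10 measured partners of the ABCD proteins in peroxisomes and cobalamin handling, 2 rose, 2 fell and 6 did not pass. MMACHC, which processes cobalamin after its release, fell 1.42-fold and stood at -0.48, -0.55 and -0.46 in urolithin A arrays, against -0.04, 0.08 and 0.00 in control arrays (adjusted p = 0.00279). LMBRD1, whose product works with ABCD4 at the lysosome, rose 1.24-fold (adjusted p = 0.0227). In peroxisomal beta-oxidation, HSD17B4 fell 1.27-fold (adjusted p = 0.0138) and the thiolase gene ACAA1 rose 1.26-fold (adjusted p = 0.0211). With 1 array left out, the calls of MMACHC held in 6 of 6 fits, those of HSD17B4 in 5, and those of LMBRD1 and ACAA1 in 2 each.

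Of 14 partners of the mitochondrial members in iron-sulfur cluster and heme synthesis, ISCA1, an assembly factor, fell 1.43-fold (log2 change -0.51, adjusted p = 0.00545) and 13 did not pass. Of 15 ribosome partners of ABCE1 and the ABCF proteins, the initiation factor gene EIF2S2 rose (log2 change 0.31, adjusted p = 0.0156), EIF2B3, for a subunit of its exchange factor, fell (log2 change -0.26, adjusted p = 0.0337), and 13 did not pass. The call of EIF2S2 ended without control replicate 1 or 2 and that of EIF2B3 whichever array was left out (adjusted p up to 0.108). Of 14 drug and anion carriers outside the family, 0 passed in limma (1 at an unadjusted p under 0.05), and of the 2 potassium channel partners of ABCC8 and ABCC9 likewise 0 (1 at an unadjusted p under 0.05). All these counts stand beside 10.2% of all genes called, and those at an unadjusted p under 0.05 in limma beside 4393 of 18239 genes. The median log2 change, 0.01 over all genes, was 0.04 for the receptors and factors, -0.09 for the LXR targets, -0.07 for the ABCD partners, -0.05 for the iron-sulfur and heme partners, 0.01 for the ribosome partners and -0.01 for the carriers.

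**Figure D4:**
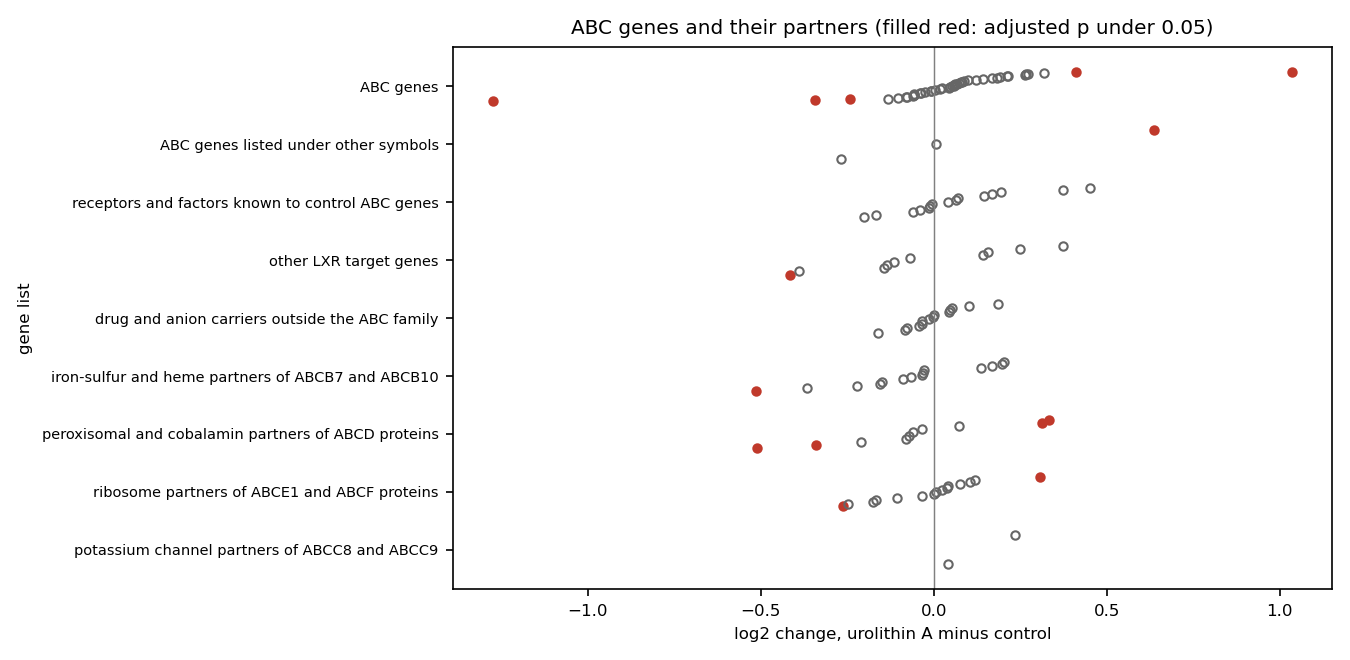
Log2 change, urolithin A minus control (x axis), of the ABC genes and of the genes in 8 lists of partners (y axis), 1 point a gene, filled red where the gene was called. ABCC4 at -1.27 and ABCG1 at 1.04 lie outside the range of all listed partners, from -0.51 to 0.64.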

How the data were processed

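Affymetrix U219 arrays, 1 a sample and 3 a group by the sample titles, measured LNCaP RNA. Per the submitters' processing notes, the authors used RMA, whose version is not given. The values they deposited, for 49386 probe sets, were read here as log2, the scale RMA gives, since no base is stated. In all 49386 the median of the 3 control arrays was 0, so the control median had been subtracted. No genome build, batch or scan date is given in the sources used here, and no 2 arrays held identical values.

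Probe sets were named by the platform annotation. After 93 control probe sets were left out, the 45253 with 1 symbol entered, and gene values are means of probe sets. Limma 3.58.1 in R 4.3.3 (lmFit, eBayes, two-sided moderated test) was fitted to 18239 genes with treatment as the only term, and diffSplice gave the F-test over probe sets. Both were tested on simulated data.

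Members and lists were chosen with earlier results of these data known. Values by array are given for called members, for 8 efflux and cholesterol genes, for members whose probe sets differ and, chosen after their values were seen, for ABCA6, ABCA12, ABCB10, ABCC5, ABCD4 and, outside the family, HLA-DRA, NR1H3, TAP1 and MMACHC. From the lists, genes that passed are named, and some that did not, also chosen after their values were seen. Deviations of same-numbered arrays from their group means correlated at 0.08, 0.02 and 0.20 over all genes. Those of differently numbered urolithin A and control arrays correlated at -0.14 to 0.07. These values do not settle whether the numbers mark pairs, and the main fit did not take them as pairs. Alternatives were a replicate block, the median of probe sets, fewer probe sets, median centring, other priors and weights, a threshold of 0.01, each array left out and, added after the data were seen, the arrays without raised HLA-DRA. No filter on signal could be applied to centred values.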

Additional observations from a re-analysis of the deposited data

How the results depend on the processing

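The fall of ABCC4 and the rise of ABCG1 passed under every alternative, apart from ABCG1 in the arrays without raised HLA-DRA. That alternative, chosen after the data were seen, sets 1 urolithin A array against 2 controls and calls 48 genes in all, so its lost calls say little about stability. ABCG1 had a log2 change of 0.80 there, against 1.04 in all arrays (adjusted p = 0.0654). Of the 14 alternatives, ABCC1 was called in 6, ABCE1 in 3 and ABCC10 in 2.

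In place of 5 called ABC genes (2 higher, 3 lower), 2 (1 higher, 1 lower) were called at an adjusted p under 0.01 and without probe sets open to cross-hybridisation, 3 (1 higher) with a trended and robust prior, and 1 (0 higher, 1 lower) in the arrays without raised HLA-DRA. Median centring and the median of probe sets each left 1 higher. With 1 array left out, 2 to 3 were called (1 to 2 higher, 1 to 2 lower). Of all genes, 1854 were called, 642 at an adjusted p under 0.01, 48 in the arrays without raised HLA-DRA, and 1063 to 1309 with 1 array left out. The F-test over probe sets called 3 members, 1 without cross-hybridising probe sets (ABCG1) and 1 to 2 with 1 array left out, where ABCG1 kept its call in 3 of 6 fits and ABCG2 in 1. The cause of these shifts was not tested. The stricter threshold calls fewer genes by definition. Leaving out an array changes both the number of arrays and which arrays remain, and the 2 cannot be told apart here.

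With the replicate number as a block, 4 ABC genes and 1863 genes were called, 2 in place of 1 iron-sulfur and heme partners and 1 in place of 2 ribosome partners. Not every array correlated best with its own number. With 1 array left out the lists gave 0 to 1 called LXR targets, 1 to 3 ABCD partners, 0 to 1 receptors and factors, and 0 to 1 ribosome partners.

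Changes near 0 turned sign without passing. ABCB1 had -0.028, ABCC2 -0.11 and ABCC3 -0.015 in the arrays without raised HLA-DRA, and ABCC2 had -0.0018 with array weights and -0.0015 with median centring. With 1 array left out ABCB1 ranged from -0.016 to 0.052, ABCC2 from -0.10 to 0.090 and ABCC3 from -0.014 to 0.10. Signal over background could not be judged from centred values.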
